A study of Mus musculus with 18 samples.

Results

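The endoplasmic reticulum (ER) stress genes examined here are 10 genes of the unfolded protein response, *Hspa5*, *Xbp1*, *Ern1*, *Ern2*, *Atf4*, *Atf6*, *Ddit3*, *Trib3*, *Hsp90b1* and *Dnajb9*, found by their gene symbols among the 47729 gene rows of a table of RNA-Seq read counts from mouse colon. The study asked how overexpression of claudin-2, a channel-forming protein of the tight junction between epithelial cells, alters colitis-associated cancer (CAC). CAC was brought about with azoxymethane (AOM), a carcinogen, in a single dose of 10 mg/kg, and with 3 cycles of dextran sulfate sodium (DSS), a colitis-inducing polymer, at 2.5% in the drinking water. There were 3 libraries in each of 3 groups on a C57BL/6 background. Libraries R1 to R3 were colon of wild-type (WT) mice labelled Control (naive WT), R4 to R6 colon of WT mice labelled AOM-DSS (WT CAC), and R7 to R9 colon of Claudin-2TG mice labelled AOM-DSS (*Cldn2*TG CAC). In the last group the transgene was driven by the Villin promoter, which is active in intestinal epithelium. No group of untreated *Cldn2*TG mice was used here, so that genotype and treatment cannot be told apart between *Cldn2*TG CAC and naive WT. The labels did not give age, sex or a mouse number for each library, and the p-values below measure only the spread between these libraries.

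Cells fold membrane and secreted proteins in the ER, and when unfolded proteins build up there, sensors in the ER membrane start the unfolded protein response. IRE1, encoded by *Ern1* and in goblet cells and other mucosal epithelium by *Ern2*, splices the *Xbp1* mRNA so that it encodes an active transcription factor. PERK slows translation in general while favoring translation of ATF4, and ATF6 is cut in the Golgi to release a transcription factor. XBP1 and ATF6 raise the genes of chaperones such as *Hspa5* (BiP), *Hsp90b1* (GRP94) and *Dnajb9* (ERdj4), and ATF4 raises *Ddit3* (CHOP), which in turn acts with it on *Trib3*. The colon makes heavy use of this machinery, since its goblet cells secrete large amounts of mucin. Read counts per gene measured the amount of each mRNA, and neither the splicing of *Xbp1* nor the translation of ATF4 was measured.

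Many chaperone genes are reached by the response through the ER stress response element (ERSE), a CCAAT box and a CCACG box set apart by a fixed spacer. It is shown here because the chaperone genes that carry it can be compared in level below. The motif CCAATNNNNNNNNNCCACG was searched on both strands in the 250 bases before the start site of each RefSeq gene (GRCm38.p6). Not every chromosome was included, and the motif occurred in 37 of the 32851 such promoters used here (0.113%). A promoter was found for 8 of the 10 ER stress genes, and an ERSE, as an exact match to this motif, lay in those of *Hspa5* and *Hsp90b1*. Sites that differ from the motif by a base were not searched for. No promoter was found in the table for *Ern2* and *Atf6*. Neither of 2 shorter ER stress motifs, ATTGGNCCACG (ERSE-II, in 0.0304% of all promoters) and TGACGTGG (UPRE, in 0.563%, whose end is the CCACG box in reverse complement), nor the amino acid response motif TGATGNAA (CARE, in 3.45%), was present in these 8 windows. The sites follow as 30 bases each in the direction of the motif, 5′ to 3′, with the motif in capitals, together with those of the ER genes in the lists described further on, so that the conserved boxes can be compared with the variable spacer. The *Hspa5* site lay at chr2:34772020-34772049 (plus strand) and the motif spanned bases 65 to 47 before the RefSeq start. The gene model used for the counts starts further upstream, so that this site lies inside *Hspa5* as counted. The *Hsp90b1* sites lay at chr10:86705632-86705661 and chr10:86705527-86705556, 212 to 194 and 107 to 89 bases before the start, in opposite orientations.
*Hspa5*: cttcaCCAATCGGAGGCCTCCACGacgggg
*Hsp90b1*, distal: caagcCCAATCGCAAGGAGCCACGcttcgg
*Hsp90b1*, proximal: aactcaCCAATCGTGCCTCACCACGcactc
*Calr*: tatgggCCAATGAGGGTCGACCACGcgttg
*Canx*: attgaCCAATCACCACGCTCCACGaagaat
*Pdia6*: agagaCCAATGAAAGGCGGCCACGgcgtgg
*Dnajc3*: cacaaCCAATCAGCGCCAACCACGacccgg
*Creld2*: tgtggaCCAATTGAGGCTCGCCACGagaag
*Syvn1*: cgcaaCCAATCGGCGGTAGCCACGggaaca
*Derl3*: ggctagCCAATGGGGAAGTCCCACGgtaga
*Ero1lb*: cggcggCCAATGAGGCGGGACCACGaggcc

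The pair of sites in front of *Hsp90b1* is best seen in context. The 185 bases at chr10:86705510-86705694 are printed here on the minus strand, the strand of the gene, and run toward the start site. The first run of capitals is the distal ERSE as written in the motif, and the second is the proximal ERSE read from the other strand, which therefore begins with the CCACG box in reverse complement.
*Hsp90b1* upstream: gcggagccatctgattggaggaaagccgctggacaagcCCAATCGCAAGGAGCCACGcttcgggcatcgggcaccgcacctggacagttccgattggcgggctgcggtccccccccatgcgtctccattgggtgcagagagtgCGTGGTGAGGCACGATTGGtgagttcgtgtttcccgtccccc

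Each library held 14142711 to 22262546 counts, so that a count of 0 allows a level of up to 0.135 to 0.212 CPM (scaled counts-per-million). Levels are CPM after TMM scaling (the trimmed mean of M values) of the 9 libraries together. As a check of the labels, *Cldn2* averaged 232 CPM in naive WT, 129 CPM in WT CAC and 226 CPM in *Cldn2*TG CAC. It was lower in WT CAC than in naive WT by a log2 fold change of -0.82 (edgeR adjusted p = 0.0138). It was higher in *Cldn2*TG CAC than in WT CAC by 0.78 on the log2 scale (edgeR quasi-likelihood test, adjusted p = 0.0103), but not than in naive WT (log2 -0.03, adjusted p = 0.897), and the counts do not separate transgene from endogenous mRNA. Epithelium was present in every library, with a summed level of epithelial markers of 15959 to 21555 CPM. Among the naive WT libraries R1 stood apart, with 0.498 CPM summed over 4 Y-linked genes and 214 CPM of the X inactivation transcript *Xist*, which male cells lack, against 146 to 189 CPM and at most 0.203 CPM in the other 8. Among the WT CAC libraries R4 stood apart from R5 and R6, and on several marker lists it lay nearer to the other groups: its summed plasma cell markers were 803 CPM against 1815 and 1653 CPM, its macrophage markers 72.4 CPM against 179 and 180 CPM, and its colonocyte markers 5969 CPM against 2877 and 1814 CPM. On B cell markers it did not, with 55.9 CPM against 28.2 and 45.7 CPM and 3.03 to 31.8 CPM in the other groups. Calls that rest on R1 or R4 are therefore given with and without them.

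Per kilobase of exon, the scale on which genes can be set beside one another, the mRNAs of the ER stress genes spanned a wide range in naive WT colon. The chaperone genes *Hspa5* and *Hsp90b1* led with 116 ± 6.67 and 114 ± 18.2 CPM per kilobase (SD, n = 3), and their libraries overlapped. The transcription factor genes *Xbp1* and *Atf4* followed at 81.4 and 81.1 CPM per kilobase and also overlapped each other. *Ern2* (24.1 CPM per kilobase) overlapped *Dnajb9* (18.9 CPM per kilobase). *Ern2* stood above *Ern1* (6.27 CPM per kilobase) in every naive library, as it did in all libraries of the other 2 groups. *Ddit3*, at 7.92 CPM per kilobase, overlapped *Atf6* at 7.0, which overlapped *Ern1*. *Trib3*, at 0.080 CPM per kilobase, was last in all 3 groups. In both CAC groups *Atf4* took the second place, at 132 CPM per kilobase in WT CAC and 117 in *Cldn2*TG CAC, where its libraries overlapped those of *Hspa5* (132 and 138 CPM per kilobase) and lay above those of *Xbp1* (89.0 and 84.5 CPM per kilobase) and of *Hsp90b1* (84.6 and 83.9 CPM per kilobase).

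**Figure D1:**
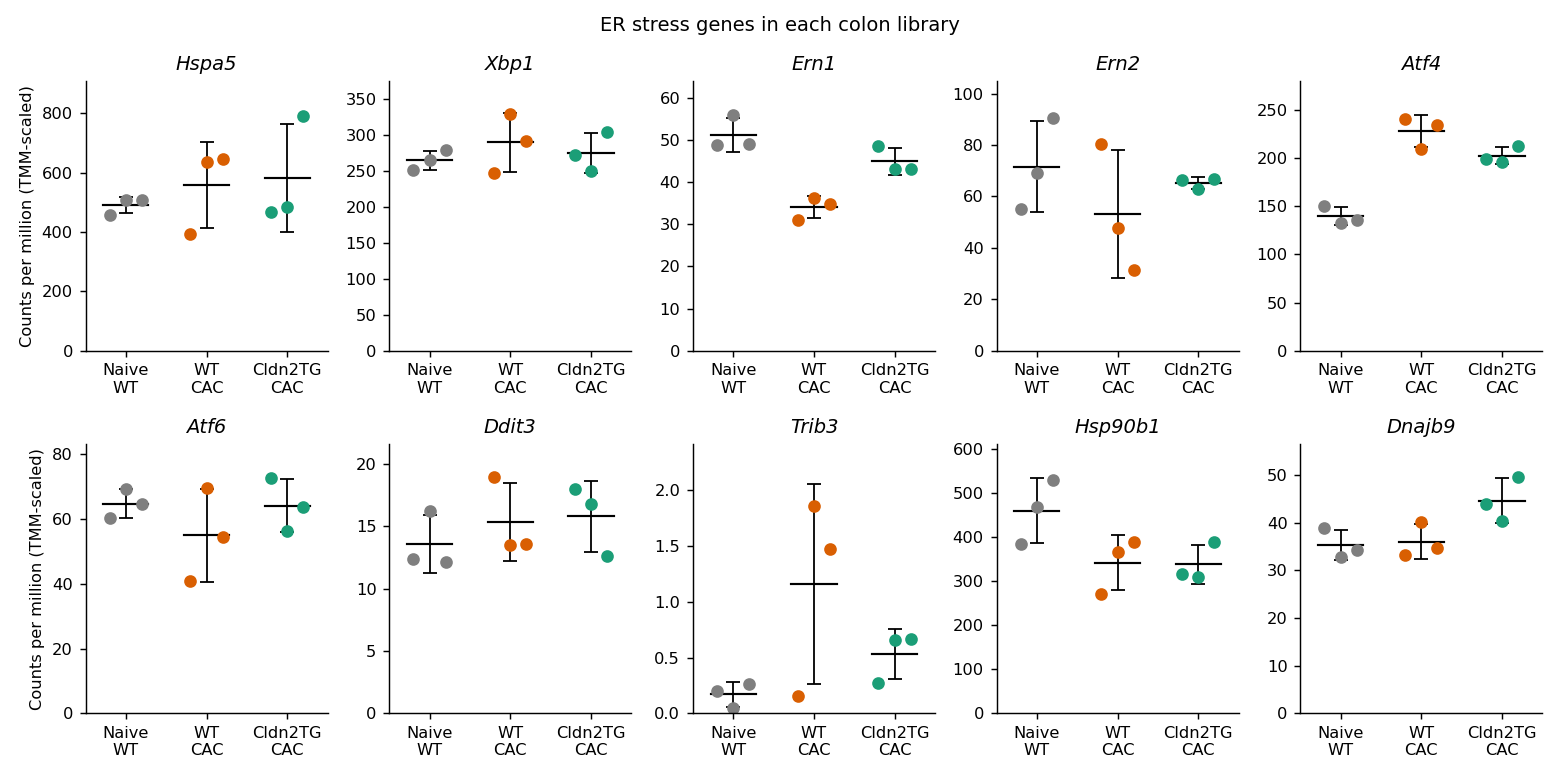
Level of each ER stress gene in CPM (y axis, linear, from 0) in the 9 colon libraries, by group (x axis). Points are libraries in the order of their numbers, the wide line is the group mean and the bars are 1 SD (n = 3). The 3 naive WT points of *Atf4* (133 to 150 CPM) lie below all 6 points of the CAC groups (196 to 240 CPM), and the 3 WT CAC points of *Ern1* (31.1 to 36.2 CPM) lie below the others.

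WT CAC was first compared with naive WT, to ask what AOM/DSS did to the response in mice without the transgene. *Atf4* rose and *Ern1* fell, and they were the only 2 of the 9 ER stress genes tested that passed an adjusted p of 0.05, beside 15.0% of all 15437 genes tested (8.04% higher and 6.92% lower in WT CAC). At an unadjusted p under 0.05 there were 3, with *Hsp90b1*, beside 32.6% of all genes. *Atf4*, the transcription factor gene of the PERK branch, stood at 150, 133 and 136 CPM in R1 to R3 and at 240, 209 and 234 CPM in R4 to R6. The groups did not overlap, and all 3 WT CAC libraries were high. The share of counts from mitochondrial genes split the libraries in the same way, at 2.86 to 3.50% in naive WT, 3.54 to 4.69% in WT CAC and 4.57 to 5.76% in *Cldn2*TG CAC, and its part in the level of *Atf4* was not tested. The log2 fold change was 0.73 (SE 0.11, 95% interval 0.47 to 0.99, a 1.66-fold rise, adjusted p = 0.0109 by edgeR). *Atf4* stayed past the threshold without R1 (adjusted p = 0.0378) and without R4 (0.00562), and missed it without R2 (log2 0.69, adjusted p = 0.0665) and without R3 (log2 0.70, adjusted p = 0.0577). *Eif2ak3*, which encodes PERK, averaged 46.8 CPM in naive WT and 36.4 CPM in WT CAC (log2 -0.34, edgeR adjusted p = 0.1). The activity of PERK was not measured.

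*Ern1*, which encodes the IRE1 sensor found in most cells, was 48.8, 55.9 and 49.1 CPM in naive WT and 31.1, 36.2 and 34.8 CPM in WT CAC. Every WT CAC library was below every naive library. It fell by 0.57 on the log2 scale (SE 0.11, 95% interval -0.83 to -0.30, edgeR adjusted p = 0.0206). The call held without R4 (adjusted p = 0.0151) and was lost when any naive library was left out, while the log2 fold change stayed at -0.60 without R1 (adjusted p = 0.0596), -0.51 without R2 (0.0849) and -0.61 without R3 (0.0626). The calls over all genes dropped at the same time, from 2310 to 631, 135 and 404. A level in bulk tissue does not tell apart fewer cells of a type and less RNA per cell.

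The epithelial sensor gene *Ern2* was uneven in WT CAC. Its level was 55.1, 69.1 and 90.5 CPM in naive WT and 80.2, 47.8 and 31.3 CPM in WT CAC. R4 lay within the naive range and R5 and R6 below it, and the fold change did not pass the test (log2 -0.40, 95% interval -1.20 to 0.40, edgeR adjusted p = 0.452). Summed goblet cell markers ran in the same order among these libraries, 15440 CPM in R4, 12934 in R5 and 11468 in R6, against 15234 to 17450 CPM in naive WT. Of the 11 goblet cell markers tested 1 rose and 1 fell, and none was at 0. Their part in the level of *Ern2* was not tested.

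The chaperone gene *Hspa5* was 459, 508 and 508 CPM in naive WT and 392, 638 and 648 CPM in WT CAC, so that R4 was the lowest and R5 and R6 the highest of the 6 (log2 0.21, 95% interval -0.23 to 0.66, edgeR adjusted p = 0.483). *Hsp90b1*, the ER form of the HSP90 chaperone, was 383, 468 and 528 CPM in naive WT and 271, 365 and 388 CPM in WT CAC, and the groups overlapped by 1 library each (log2 -0.40, SE 0.18, adjusted p = 0.153). *Xbp1* was 251, 264 and 278 CPM in naive WT and 247, 329 and 291 CPM in WT CAC (log2 0.15, adjusted p = 0.445). Neither the ATF6 sensor gene nor the co-chaperone gene *Dnajb9* passed the test. *Atf6* was 60.3 to 69.1 CPM in naive WT and 40.8 to 69.5 CPM in WT CAC (log2 -0.21, adjusted p = 0.458), and *Dnajb9* was 32.7 to 38.8 and 33.2 to 40.2 CPM (log2 0.05, adjusted p = 0.795).

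Of the genes downstream of ATF4, *Ddit3* encodes CHOP, a transcription factor that favors cell death under prolonged stress. It was 12.4, 16.2 and 12.1 CPM in naive WT and 18.9, 13.5 and 13.6 CPM in WT CAC, with R4 the highest (log2 0.21, 95% interval -0.25 to 0.66, edgeR adjusted p = 0.505). *Trib3*, which encodes a pseudokinase that restrains ATF4 and CHOP, was close to the limit of detection, with 4, 1 and 6 counts in naive WT and 3, 42 and 22 counts in WT CAC. R5 and R6 stood out and R4 did not. It was too low to be tested in these 6 libraries under the count filter. Its fitted log2 fold change passed the test in a fit of all 9 libraries (2.71, SE 0.81, edgeR adjusted p = 0.0397) and not in a fit of the 6 without a filter (2.69, SE 0.84, adjusted p = 0.0786). It entered the first of these fits only through CAC libraries, where it is high, so that pass is not read as support.

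Several of these calls depended on the WT CAC library left out. Without R4, *Hspa5* (log2 0.41, adjusted p = 0.0288) and *Ern2* (log2 -0.83, adjusted p = 0.0417) passed the test beside *Atf4* and *Ern1*, and 25.7% of all genes did. *Trib3* passed as well (adjusted p = 0.00412), but it entered that fit only through R5 and R6, where it is high, and is not read as support. Without R5, *Hspa5* was 0.12 (edgeR adjusted p = 0.746) and *Ern2* -0.32 (0.617). Without R6 they were 0.09 (0.822) and -0.14 (0.792). With R4 the median log2 fold change of the 9 genes tested was 0.05, beside 0.02 over all genes, and 2 of the 9 did not overlap between the groups, beside 38.0% of all genes.

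**Figure D2:**
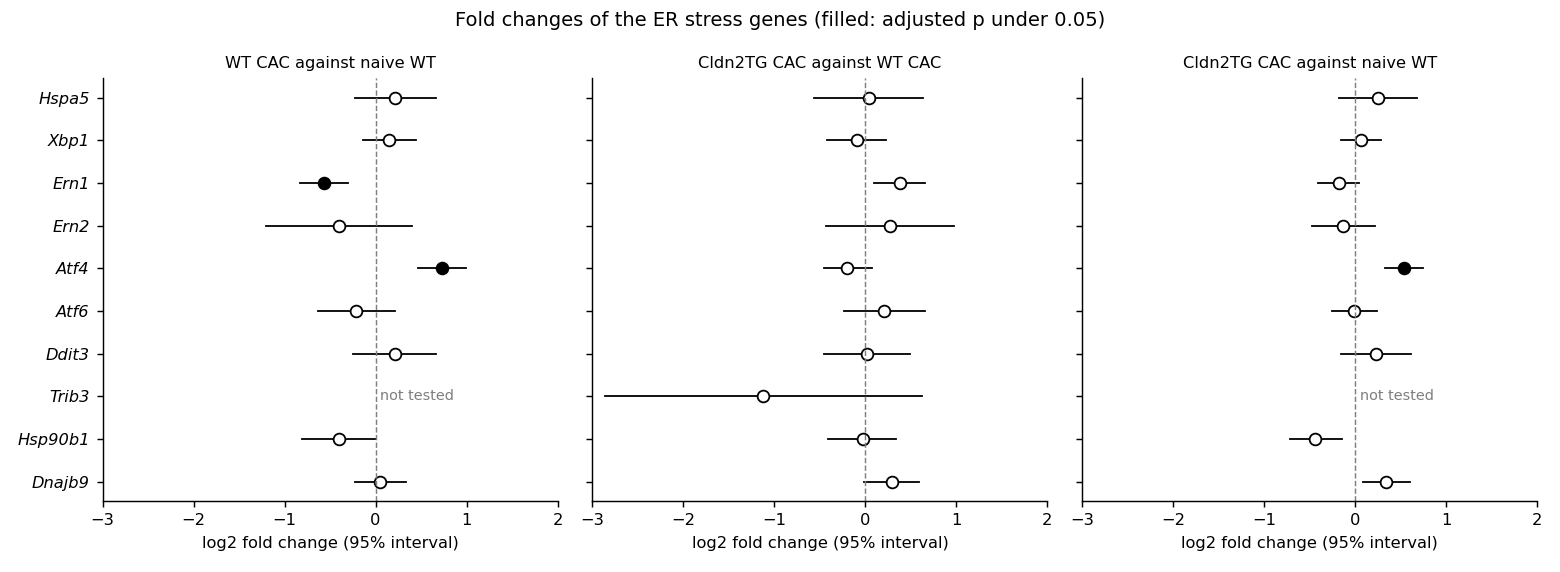
Log2 fold change of each ER stress gene (x axis) in the 3 comparisons, with the 95% interval as a line, from edgeR. Filled points passed an adjusted p of 0.05: *Atf4* (0.73) and *Ern1* (-0.57) in WT CAC against naive WT and *Atf4* (0.54) in *Cldn2*TG CAC against naive WT. *Trib3* was too low to be tested in 2 comparisons.

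*Cldn2*TG CAC was then compared with WT CAC, to ask whether claudin-2 overexpression altered the response under the same treatment. None of the 10 ER stress genes passed an adjusted p of 0.05, with 0 called by edgeR and 0 by DESeq2, beside 9.54% of all 14888 genes tested by edgeR (2.19% higher and 7.35% lower in *Cldn2*TG CAC). At an unadjusted p under 0.05 there was 1, *Ern1*, beside 23.5% of all genes. *Ern1* was 48.6, 43.1 and 43.1 CPM in *Cldn2*TG CAC against 31.1, 36.2 and 34.8 CPM in WT CAC. The 2 groups did not overlap (log2 0.38, SE 0.12, 95% interval 0.10 to 0.66, edgeR adjusted p = 0.0943). When all 9 libraries shared the estimate of the spread, the same log2 difference of 0.38 passed the test (adjusted p = 0.0400), the only 1 of 14 alternatives in which it did. Scaling by total count alone gave log2 0.28 (adjusted p = 0.257), and leaving out a library gave adjusted p of 0.125 to 0.243. *Dnajb9* likewise did not overlap, at 43.8, 40.4 and 49.6 CPM in *Cldn2*TG CAC against 33.2, 40.2 and 34.6 CPM in WT CAC, though the nearest libraries were almost equal (log2 0.29, 95% interval -0.02 to 0.59, adjusted p = 0.249). Beside these 2 genes, 28.5% of all genes did not overlap.

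*Atf4* was 199, 196 and 212 CPM in *Cldn2*TG CAC, a range that overlapped the 209 to 240 CPM of WT CAC (log2 -0.20, 95% interval -0.46 to 0.07, edgeR adjusted p = 0.375). *Hspa5* was 469, 485 and 792 CPM, R9 being the highest library of all 9, and its difference from WT CAC was poorly determined (log2 0.04, 95% interval -0.56 to 0.63, adjusted p = 0.963). R9 also held the highest summed goblet cell markers, 21849 CPM against 14338 and 13450 CPM in R7 and R8. The intervals were narrower for *Xbp1*, at 249 to 303 CPM in *Cldn2*TG CAC (log2 -0.09, interval -0.42 to 0.23), and for *Hsp90b1*, at 310 to 389 CPM (log2 -0.03, interval -0.41 to 0.34). *Ddit3*, at 12.6 to 18.0 CPM, and *Atf6*, at 56.1 to 72.6 CPM, differed from WT CAC by log2 0.02 and 0.20 (adjusted p = 0.980 and 0.632).

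For *Ern2* the outcome depended on which WT CAC libraries were kept. It was 66.3, 62.7 and 66.9 CPM in *Cldn2*TG CAC, a narrow range that lay between R4 (80.2 CPM) and the other WT CAC libraries (47.8 and 31.3 CPM). Its log2 fold change was 0.27 with all libraries (95% interval -0.43 to 0.97, edgeR adjusted p = 0.689) and 0.71 without R4 (adjusted p = 0.0207). For *Ern2* it was 0.19 without R5 (adjusted p = 0.846) and 0.01 without R6 (adjusted p = 0.989). *Trib3* had 4, 13 and 9 counts in *Cldn2*TG CAC, above the 3 counts of R4 and below the 42 and 22 of R5 and R6. Its log2 fold change was -1.12 (SE 0.76, adjusted p = 0.452), and -1.64 without R4 (adjusted p = 0.0285). The counts cleared the filter mostly in R5 and R6, where it is high, so that pass is not read as support. Of all genes 19.2% were called without R4.

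The third comparison, of *Cldn2*TG CAC with naive WT, shares its libraries with the first 2 and differs in both genotype and treatment. *Atf4* rose here as well, and was the only 1 of 9 genes called, beside 10.0% of all 15013 genes tested (3.92% higher and 6.07% lower). At an unadjusted p under 0.05 there were 3, with *Hsp90b1* and *Dnajb9*, beside 26.0% of all genes. The 199, 196 and 212 CPM of *Cldn2*TG CAC all exceeded the 150, 133 and 136 CPM of naive WT (log2 0.54, SE 0.09, 95% interval 0.33 to 0.74, a 1.45-fold rise, edgeR adjusted p = 0.00807). The call held in all 14 alternatives run, including those without R1 (adjusted p = 0.0166) and without R9 (0.0276). Of all genes called, 39.2% were higher in *Cldn2*TG CAC, a share that became 17.4% when libraries were scaled by total count alone.

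*Hsp90b1* was near the threshold in this comparison. Its 316, 310 and 389 CPM in *Cldn2*TG CAC were below all naive libraries in R7 and R8, while R9 slightly exceeded R1 (log2 -0.44, SE 0.13, 95% interval -0.72 to -0.15, edgeR adjusted p = 0.0614). It was called in 6 of the 14 alternatives, with log2 -0.55 both without R1 (adjusted p = 0.0371) and without R9 (adjusted p = 0.0475). *Dnajb9* was 38.8, 32.7 and 34.3 CPM in naive WT, below all of *Cldn2*TG CAC (log2 0.34, 95% interval 0.09 to 0.60, adjusted p = 0.0904). The remaining values were log2 0.25 for *Hspa5* (adjusted p = 0.443), 0.06 for *Xbp1* (0.737), -0.18 for *Ern1* (0.289), -0.13 for *Ern2* (0.650), -0.01 for *Atf6* (0.977) and 0.23 for *Ddit3* (0.445). *Ern1* in *Cldn2*TG CAC was below naive WT in every library, R7 (48.6 CPM) only just. Among the 9 genes tested 3 did not overlap, *Atf4*, *Ern1* and *Dnajb9*, beside 31.2% of all genes.

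The wider pathway was followed in 5 lists of ER genes, 116 genes together with the 10. Most of their genes did not pass the test: 11 of 115 tested in WT CAC against naive WT, 3 of 116 between the 2 CAC groups and 7 of 115 in *Cldn2*TG CAC against naive WT, beside the 15.0%, 9.54% and 10.0% of all genes. The median log2 fold change of the 5 lists together was -0.02, 0.00 and -0.04, and that of all genes 0.02, 0.01 and 0.00.

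Among the 18 sensor and transcription factor genes, 2 rose and 2 fell in WT CAC. Besides *Atf4* and *Ern1* these were *Creb3l1* and *Creb3l3*, which encode membrane-bound relatives of ATF6. *Creb3l1*, known from secretory cells, had the highest mean CPM of the list, with 386, 413 and 421 CPM in naive WT, 243, 181 and 136 CPM in WT CAC, and 317, 312 and 355 CPM in *Cldn2*TG CAC. The 3 groups did not overlap, with naive WT the highest and WT CAC the lowest. It fell by 1.10 on the log2 scale in WT CAC (SE 0.20, edgeR adjusted p = 0.0160) and was higher in *Cldn2*TG CAC than in WT CAC by 0.79 (SE 0.20, adjusted p = 0.0424). *Creb3l3*, best known from liver and gut lipid metabolism, was 1.56 to 5.03 CPM in naive WT and 9.98 to 15.5 CPM in WT CAC (log2 1.84, SE 0.42, adjusted p = 0.0295). *Ppp1r15a*, the phosphatase subunit GADD34 that ends the translational block, fell in *Cldn2*TG CAC against naive WT (log2 -0.72, SE 0.20, adjusted p = 0.0473), from 20.0 to 28.7 CPM to 10.6 to 17.2 CPM. *Rtcb*, the ligase that joins the *Xbp1* exons after IRE1 has cut them, was 176 to 234 CPM over the 9 libraries and did not pass the test in any comparison.

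Few chaperone and folding enzyme genes passed the test. In WT CAC against naive WT 22 of the 28 genes had a negative log2 fold change (median -0.13, beside 0.02 over all genes), and 1 fell, *Pdia5*, a protein disulfide isomerase. In *Cldn2*TG CAC against naive WT 21 of the 28 were negative (median -0.14, beside 0.00 over all genes), and 2 fell, *Pdia5* and *Pdia6*. The list as a whole was not tested. *Pdia5* was 85.5, 92.5 and 107 CPM in naive WT, 53.4, 52.4 and 53.0 CPM in WT CAC and 71.4, 63.5 and 70.3 CPM in *Cldn2*TG CAC. It was lower than naive WT in both CAC groups (log2 -0.82, SE 0.11, edgeR adjusted p = 0.00821, and log2 -0.47, SE 0.11, adjusted p = 0.0220). *Pdia6*, which reduces and isomerizes disulfides and also attenuates the sensors, was 251, 266 and 309 CPM in naive WT and 189, 185 and 216 CPM in *Cldn2*TG CAC (log2 -0.48, SE 0.11, adjusted p = 0.0198), and 154 to 225 CPM in WT CAC (log2 -0.52, adjusted p = 0.0636). Between the 2 CAC groups 14 genes were positive, 14 were negative and none of the 28 passed the test by edgeR, with 1 at an unadjusted p under 0.05. Of the genes with the highest mean CPM in the list, *Pdia3* was 685 to 1015 CPM, *P4hb* 709 to 964 CPM and *Calr* 585 to 936 CPM over the 9 libraries, and none of these 3 passed the test in any comparison.

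In ER-associated degradation, which returns misfolded proteins to the cytosol for destruction, 1 of 18 genes rose in WT CAC. This was *Herpud1*, a scaffold of the degradation complex, at 181, 160 and 182 CPM in naive WT and 215, 272 and 237 CPM in WT CAC (log2 0.49, SE 0.12, edgeR adjusted p = 0.0346). It was 182, 173 and 203 CPM in *Cldn2*TG CAC. *Derl3*, a derlin prominent in plasma cells, fell in *Cldn2*TG CAC against WT CAC from 1.32, 2.79 and 2.61 CPM to 0.620, 0.456 and 0.517 CPM (log2 -2.09, SE 0.41, adjusted p = 0.0181). Its level is low, it was tested because of the WT CAC libraries, where it is high, and it also belongs to the plasma cell marker list, of which 5 of 9 tested genes fell in the same comparison, *Derl3* included. The summed level of that list was 803 to 1815 CPM in WT CAC, 336 to 547 CPM in *Cldn2*TG CAC and 418 to 537 CPM in naive WT, with no marker at 0, and its part in the fall of *Derl3* was not tested. *Os9*, a lectin of this route, was 167 to 223 CPM and did not pass the test in any comparison.

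Of the 22 genes of translocation and ER to Golgi transport, 2 fell in WT CAC, both of the COPII coat that forms transport vesicles. *Sec23b*, another COPII gene of the list, did not fall (log2 0.15, edgeR adjusted p = 0.426). *Sec24d* was 59.5 to 81.0 CPM in naive WT and 39.8 to 46.9 CPM in WT CAC (log2 -0.62, SE 0.15, edgeR adjusted p = 0.0302). *Sec31a* was 203 to 241 CPM in naive WT and 158 to 166 CPM in WT CAC (log2 -0.42, SE 0.10, adjusted p = 0.0346), and it was lower in *Cldn2*TG CAC too, at 158 to 176 CPM (log2 -0.38, adjusted p = 0.0337). *Ssr4*, a subunit of the translocon-associated complex, rose in *Cldn2*TG CAC against naive WT, from 168 to 173 CPM to 198 to 270 CPM (log2 0.49, SE 0.11, adjusted p = 0.0235). *Ssr3*, *Kdelr2* and *Kdelr1*, the genes of the list with the highest mean CPM, passed the test in no comparison.

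Of the ATF4 and CHOP targets few passed the test. In WT CAC 23 of 30 tested genes had a positive log2 fold change (median 0.20, beside 0.02 over all genes), with 1 called higher and 2 called lower. The summed level of the list was 1545 to 1578 CPM in naive WT, 1825 and 1847 CPM in R5 and R6, and 1479 CPM in R4, the lowest of all 9 libraries, so that R4 went the other way. It was 1566 and 1583 CPM in R7 and R8 and 1828 CPM in R9. *Cebpb*, a transcription factor of inflammation and a partner of CHOP, rose from 5.69 to 7.56 CPM in naive WT to 11.9 to 13.9 CPM in WT CAC (log2 1.02, SE 0.18, edgeR adjusted p = 0.0157) and to 8.82 to 13.2 CPM in *Cldn2*TG CAC (log2 0.76, SE 0.20, adjusted p = 0.0353). *Bbc3*, the cell death gene PUMA, fell in WT CAC from 14.2 to 18.7 CPM to 5.69 to 10.8 CPM (log2 -1.06, SE 0.25, adjusted p = 0.0310), and so did *Pck2*, the mitochondrial form of a gluconeogenic enzyme, from 56.0 to 68.0 CPM to 36.0 to 50.6 CPM (log2 -0.58, adjusted p = 0.0426). Between the 2 CAC groups the median was -0.27, beside 0.01 over all genes, and 21 of 31 genes were negative, yet only 1 was called and it was higher. This was *Gdf15*, a stress cytokine, at 6.65, 3.89 and 5.56 CPM in WT CAC and 11.3, 9.93 and 20.2 CPM in *Cldn2*TG CAC (log2 1.34, SE 0.32, adjusted p = 0.0363). The tRNA synthetase genes *Wars* (170 to 259 CPM), *Nars* (151 to 224 CPM) and *Sars* (137 to 173 CPM) passed the test in no comparison. Tryptophanyl-tRNA synthetase is also known as an interferon-induced gene, and *Wars* was highest in R5 and R6, the libraries with the highest macrophage markers (179 and 180 CPM), whose part in its level was not tested.

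The calls of the list genes depended on the libraries kept. Without R4, 25 list genes were called in WT CAC against naive WT and 14 between the 2 CAC groups, beside 25.7% and 19.2% of all genes. The values that follow give each gene without R1 and without R4 (log2 fold change, edgeR adjusted p in parentheses). In WT CAC against naive WT, *Creb3l1* was -1.14 (0.0506) without R1 and -1.34 (0.000717) without R4, and *Creb3l3* was 2.08 (0.0655) and 1.76 (0.0327). *Pdia5* was -0.89 (0.0301) and -0.83 (0.00349), and *Cebpb* was 1.15 (0.0374) and 1.07 (0.00670). *Herpud1* was 0.52 (0.0943) without R1 and 0.57 (0.0110) without R4, and *Sec24d* was -0.70 (0.0610) and -0.60 (0.0292). *Sec31a* was -0.48 (0.0742) and -0.43 (0.0285), *Bbc3* -1.16 (0.0673) and -0.89 (0.0276), and *Pck2* -0.67 (0.0728) and -0.74 (0.00502). Over the 6 fits that leave out a library, *Pdia5* was called in 5, *Cebpb* in 4, *Creb3l1* and *Creb3l3* in 3 and *Bbc3* in 2, while *Herpud1*, *Sec24d*, *Sec31a* and *Pck2* were called in 1 each, the fit without R4 (adjusted p of up to 0.137, 0.0878, 0.124 and 0.151). The fold changes kept their sign in all of these, and without R1 *Atf4*, *Pdia5* and *Cebpb* were the list genes still past the threshold. Between the 2 CAC groups *Creb3l1* was 1.04 (0.00153), *Derl3* -2.35 (0.00173) and *Gdf15* 1.54 (0.0145) without R4, and with any other library left out no list gene was called, while 58 to 805 of all genes were. *Derl3* cleared the filter without R4 mostly through R5 and R6, where it is high, so that pass is not read as support. In *Cldn2*TG CAC against naive WT without R1, *Ppp1r15a* was -0.82 (0.0584) and *Ssr4* 0.49 (0.0629), and *Pdia5*, *Pdia6*, *Sec31a* and *Cebpb* were past the threshold (adjusted p = 0.0312, 0.0314, 0.0491 and 0.0395). Over the 6 fits of this comparison that leave out a library, *Pdia5*, *Pdia6*, *Sec31a* and *Cebpb* were called in 3, 4, 1 and 2, with adjusted p of up to 0.102, 0.0834, 0.142 and 0.135 and the same sign throughout. *Ppp1r15a* and *Ssr4* were called in 1 of these fits each (edgeR adjusted p of up to 0.139 and 0.088).

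**Figure D3:**
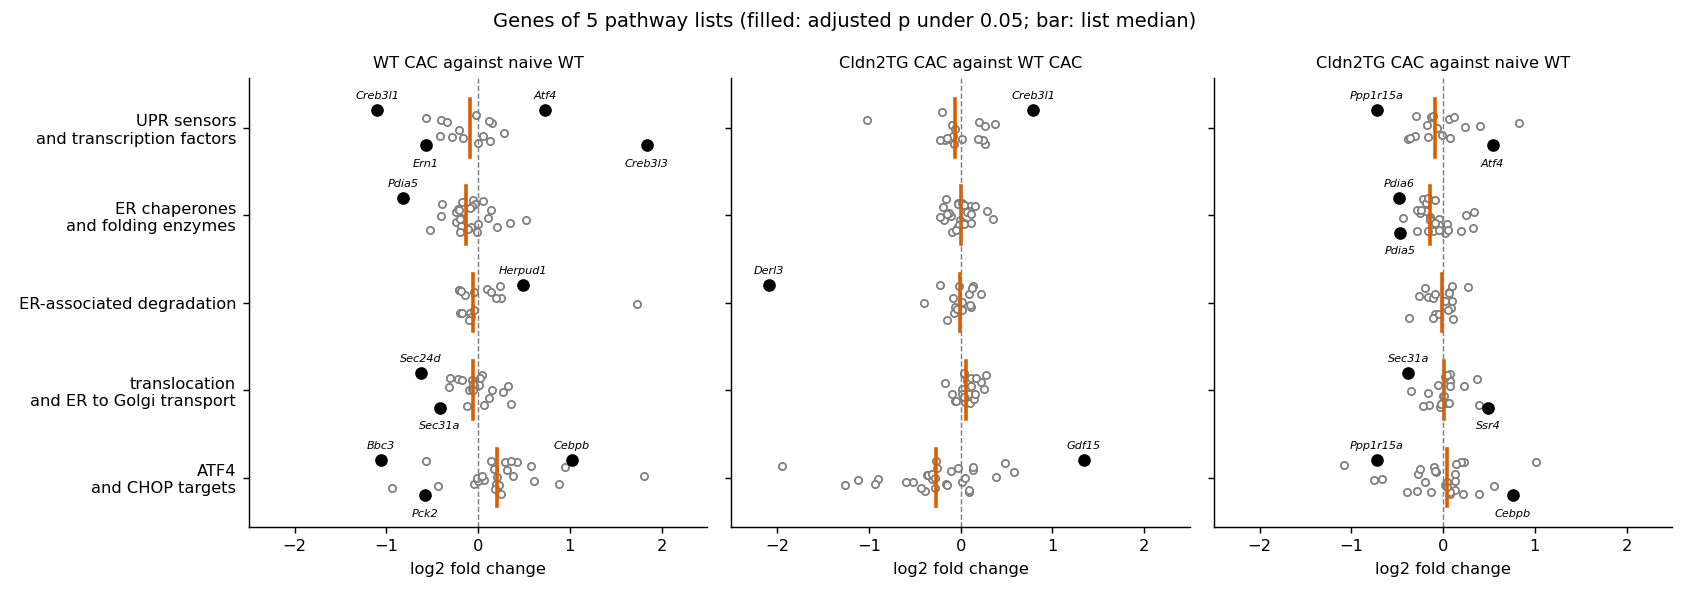
Log2 fold change (x axis) of every tested gene of the 5 ER pathway lists (rows) in the 3 comparisons. Filled and named points passed an edgeR adjusted p of 0.05, open points did not, and the orange bar is the list median. Most genes lie near 0, and the ATF4 and CHOP targets have a median of 0.20 in WT CAC against naive WT and of -0.27 between the CAC groups, with R4 on the opposite side of naive WT from R5 and R6 in summed level.

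The ERSE sequences printed above can be set beside the levels. Of the 116 list genes 94 had a promoter among those searched, and 10 of these (10.6%) held an ERSE, among them the site of *Canx* at chr11:50325794-50325823 and that of *Pdia6* at chr12:17266486-17266515. The sites of *Calr* and *Creld2* lie between divergent neighboring genes and were found in the promoter of both. The 10 genes did not move as one. In WT CAC against naive WT none was called by edgeR, beside 15.0% of all genes. There were 3 at an unadjusted p under 0.05, beside 32.6%. The median log2 fold change was -0.20, beside 0.02 over all genes. Between the 2 CAC groups 1 was called, *Derl3*, beside 9.54% of all genes, and the median was -0.03, beside 0.01. *Derl3* was tested because of the WT CAC libraries, where it is high, so that pass is not read as support. In *Cldn2*TG CAC against naive WT 9 of 10 were negative (median -0.19, beside 0.0 over all genes). Of the 10, 1 fell, *Pdia6*, beside 10.0% of all genes called. *Hspa5* was the gene with the positive value. The genes *Hspa5* and *Hsp90b1*, which both hold the element, had different values: their ratio per kilobase within a library was 1.14, 1.03 and 0.916 in naive WT, 1.38, 1.67 and 1.59 in WT CAC and 1.42, 1.49 and 1.94 in *Cldn2*TG CAC. The naive libraries were below all 6 others. This ratio was chosen after the values were seen and was not tested.

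**Figure D4:**
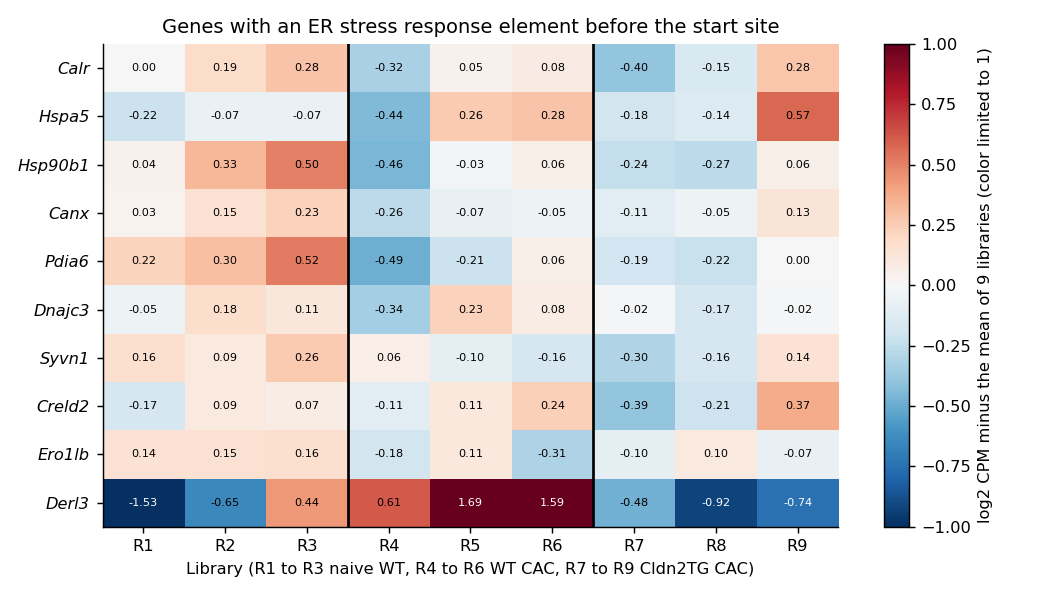
Heat map of the 10 ER genes with an ERSE (rows) in the 9 libraries (columns), as log2 CPM minus the mean of the gene over the 9 libraries, printed in each cell and shown as color. R4 has a negative value in 8 of the 10 genes, and *Hspa5* in R9 (0.57) and *Derl3* in R5 and R6 (1.69 and 1.59) have the highest values of their rows.

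The genes whose pattern over the 9 libraries was most like that of 4 of the ER stress genes were sought among 14480 genes, by the root mean square difference of the centred log2 CPM. For *Hspa5* they were *Plk2* (0.134), *Hdac1* (0.135) and *Rars* (0.138). For *Xbp1*, whose own pattern was nearly flat, they were *Pip4p2* (0.045), *Shtn1* (0.045) and *Ankib1* (0.052). For *Ern2* they were *Gm45837* (0.127), *Gm37090* (0.136) and *Socs2* (0.166). For *Trib3* the nearest genes were less alike, *H2-Ab1* (0.428), *H2-DMa* (0.437) and *Duoxa2* (0.446). *H2-Ab1* encodes a chain of MHC class II.

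Markers of other cell types moved between the groups too, as read from 13 marker lists, beside the 15.0%, 9.54% and 10.0% of all genes called in the 3 comparisons. In WT CAC against naive WT, 4 of 9 tested plasma cell, 6 of 7 macrophage, 5 of 6 T cell, 5 of 6 Paneth cell and 4 of the 7 neutrophil markers rose (the other 3 neutrophil markers were too low to be tested), and 3 of 8 colonocyte markers fell while 1 rose. In *Cldn2*TG CAC against WT CAC, 5 of 9 plasma cell, 6 of 7 macrophage, 5 of 6 T cell, 1 of 6 B cell, 1 of 6 Paneth cell, 2 of 7 neutrophil (4 not tested), 2 of 6 fibroblast and 2 of 5 endothelial markers fell, and 3 of 8 colonocyte and 1 of 11 goblet cell markers rose while 1 colonocyte marker fell. Summed Paneth cell markers were 25.5 to 34.6 CPM in naive WT, 186 to 1876 CPM in WT CAC and 38.2 to 52.3 CPM in *Cldn2*TG CAC, and *Ly6g* made up 96.7% of the summed neutrophil level. In *Cldn2*TG CAC against naive WT, 2 of 6 smooth muscle, 3 of 5 endothelial and 1 of 6 fibroblast markers fell, and 2 of 9 epithelial, 1 of 5 Paneth cell and 1 of 7 neutrophil markers (6 not tested) rose. Several of these markers were high enough to be tested only because of the WT CAC libraries. Exocrine pancreas markers summed to at most 2.26 CPM. The part of these markers in the levels of *Atf4*, *Ern1* and *Creb3l1* was not tested.

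Each of the 10 genes occupies a single place in GRCm38, as follows. *Hspa5* lies at chr2:34771970-34777547 and *Trib3* at chr2:152337422-152344032, *Xbp1* at chr11:5520659-5525893 and *Ern1* at chr11:106394650-106487852. *Ern2* lies at chr7:122169893-122186207, *Atf4* at chr15:80255184-80257540 and *Atf6* at chr1:170704674-170867771. *Ddit3* lies at chr10:127290774-127296288, *Hsp90b1* at chr10:86690209-86705509 and *Dnajb9* at chr12:44205897-44210068. Whether the counting used the strand was not given in the sources used here. *Ddit3* shares 68 exon bases (4.0% of its exons) with the antisense gene *Mars*, which had 7844 counts in all libraries against 2494 for *Ddit3*, and *Hsp90b1* shares 415 bases (10.3%) with the antisense gene *1810014B01Rik*, which had 269 counts against 64516 for *Hsp90b1*.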

How the data were processed

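RNA from 9 mouse colons (3 in each group) was sequenced on 2 lanes. The authors deposited raw read counts per gene, made with featureCounts (Subread) on GRCm38. The aligner is TopHat2 in the methods and HISAT2 in the submitters' processing notes, and versions were not given in the sources used here. The deposited treatment text names AOM and DSS for control samples too, so the groups follow the treatment and genotype labels. Here the 2 lanes of a library, which differed by about the sampling noise (chi-square per degree of freedom 0.995 to 1.057), were summed to 14142711 to 22262546 counts; limits from a count of 0 cover counting error only. Gene names came from the GENCODE table (47224 of 47729 rows). Fold changes came from edgeR 4.0.16 (robust quasi-likelihood test, TMM, filterByExpr with minimum count 10 and total 15), fitted on all genes of the 6 libraries compared, with Benjamini-Hochberg adjusted p and a threshold of 0.05; DESeq2 1.42.0 was an alternative. In simulated data for WT CAC against naive WT with 200 of 15437 genes changed by a log2 of 2, edgeR recovered 192 and called 16 unchanged genes; smaller changes were not simulated. The 10 genes, 5 pathway lists and 13 marker lists were chosen with earlier results of these data known. Named were the 10 genes, the 3 genes of each list with the highest mean CPM, the largest non-overlapping rise and fall among those called per list and comparison, and the nearest patterns of 4 genes. *Pck2*, *Eif2ak3*, *Sec23b* and the lower-ranked ERSE genes are named beyond this rule, after their values were seen. One gene that the rule names is not reported here.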

Additional observations from a re-analysis of the deposited data

How the results depend on the processing

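The alternatives were DESeq2, scaling by library size or upper quartile, no filter, at least 10 counts in every library, all 9 libraries in the fit, either lane alone, an unadjusted p, and leaving out each library. With library size alone the median of all genes moved by -0.102 (*Cldn2*TG CAC against WT CAC) and -0.113 (*Cldn2*TG CAC against naive WT) on the log2 scale. No paired analysis was possible because the library numbers are not shared between groups. Of the log2 fold changes of the 10 genes under these settings, 349 kept their direction and their side of the threshold, 11 newly passed it, 5 no longer did and 23 reversed; the cause was not tested.

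In WT CAC against naive WT (2310 genes, 2 of the 10 and 11 list genes called), leaving out a library gave 135 to 4080 genes, 0 to 5 of the 10 and 0 to 25 list genes, the highest values without R4 and the lowest without R2. An unadjusted p gave 5032 genes and 29 list genes, DESeq2 18 and all 9 libraries 17 list genes. Between the CAC groups (1421, 0 and 3), leaving out a library gave 58 (without R8) to 2894 genes (without R4), 0 to 2 of the 10 and 0 to 14 list genes. The stricter filter gave 908 genes and 1 list gene, all 9 libraries 2136 genes, 1 of the 10 and 7 list genes, an unadjusted p 3498, 1 and 13, DESeq2 7 list genes and no filter 5. In *Cldn2*TG CAC against naive WT (1501, 1 and 7), leaving out a library gave 525 (without R3) to 1383 genes, 1 to 2 of the 10 and 1 to 9 list genes. No filter gave 2567 genes, 2 of the 10 and 15 list genes, all 9 libraries 445 genes and 2 list genes, an unadjusted p 3896, 3 and 27, DESeq2 2 of the 10 and 12 list genes, library size 2 and 14, and the upper quartile 2 of the 10.

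The reversed values were small and none passed the threshold. Leaving out a library gave *Dnajb9* -0.02 to 0.13 in WT CAC against naive WT, *Hspa5* -0.24 to 0.18, *Ddit3* -0.08 to 0.21 and *Hsp90b1* -0.17 to 0.09 between the CAC groups, and *Hspa5* -0.04 to 0.37, *Xbp1* -0.02 to 0.12, *Ern2* -0.28 to 0.07 and *Atf6* -0.12 to 0.08 in *Cldn2*TG CAC against naive WT. Library size gave *Hspa5* -0.08 and *Ddit3* -0.08 against WT CAC and *Xbp1* -0.06 against naive WT, and *Ddit3* was -0.02 with the upper quartile, -0.01 with the stricter filter and -0.04 in lane 2. With 1 to 42 counts a library, depth limits what can be said of *Trib3*.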

Other observations

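The ratio of *Ern2* to *Ern1* per kilobase of exon, both encoding IRE1 sensors, was 3.12, 3.41 and 5.09 in naive WT, 7.11, 3.65 and 2.49 in WT CAC and 3.77, 4.01 and 4.28 in *Cldn2*TG CAC. Within WT CAC it was highest in R4 and lowest in R6, the same order as the summed goblet cell and colonocyte markers, and the *Cldn2*TG CAC libraries were the closest to one another. The ratio was chosen after the values were seen and was not tested.

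The summed level of the 10 ER stress genes was 1459, 1616 and 1701 CPM in naive WT, 1354, 1750 and 1731 CPM in WT CAC and 1505, 1460 and 1932 CPM in *Cldn2*TG CAC. *Hspa5* made up 33.8% of it, and the groups overlapped. The summed chaperone and folding enzyme list was 5807, 6281 and 6823 CPM in naive WT, 4772, 6001 and 6299 CPM in WT CAC and 5141, 5424 and 6743 CPM in *Cldn2*TG CAC, with R4 the lowest of the 9 libraries on both sums.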
